A study of Homo sapiens with 36 samples.

Results

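The DNA mismatch repair genes described here are the MutS homologs MSH3 and MSH6 and the MutL homologs PMS1, PMS2 and MLH3. They were taken by gene symbol from a table of estimated transcript counts, in which the transcripts of a symbol were summed. These are 5 of the 27852 genes with a symbol in the table. All 5 passed the minimum of 100 counts in at least 1 library in each of the 3 fits used below.

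Mismatch repair removes bases that were paired wrongly, and short loops left by slippage, behind the replication fork. MutS proteins recognise the error, with MSH6 best known for single mismatches and short loops and MSH3 for larger loops. MutL proteins are then recruited, the new strand is cut and degraded, and the gap is filled and sealed. Loss of function in this pathway leaves microsatellites unstable, and tumours of the prostate are among those in which this has been found.

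RNA was sequenced from 36 cultures of 4 human prostate cancer (PCa) cell lines, which fall into 16 groups of line and culture. C4-2 and C4-2B, both derived from LNCaP, were labelled osteoblastic and are called BPCa, and DU145 and 22Rv1 were labelled osteolytic and are called LPCa. Each line was grown alone (mono-culture, n = 3), beside the human osteosarcoma line MG63, used as osteoblast-like (OB-like) cells (MG63 co-culture, n = 2), alone with the cytokine RANKL (RANKL mono-culture, n = 2), or beside the mouse macrophage line RAW264.7 with RANKL (RAW264.7 co-culture, n = 2). The partner cells were kept in a neighbouring well behind a filter. RANKL was used at 50 ng/mL, and co-culture with MG63 cells lasted 5 days. Each line is a single established line, so differences between BPCa and LPCa rest on 4 lines. The labels do not say whether samples of a group came from separate experiments, so the p-values measure the spread between these samples, which may be technical.

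The 12 mono-cultures without RANKL held 23932472 to 36719047 counts and the 24 other libraries 9593426 to 15418211 counts. Depth therefore moved with MG63 and with RANKL against mono-culture, and the effect of depth and of culture cannot be told apart in those comparisons. The library DU145 MG63 replicate 2 stood apart from the other libraries of its line in PMS2 and in the neighbours of PMS1 and PMS2, and MSH6 and PMS2 are given with and without it below. The labelled lines differed in the summed levels of marker genes. The summed level of 6 prostate luminal genes was 4254 to 8128 counts per 1000000 counts (CPM) in the BPCa lines, 782 to 1037 CPM in 22Rv1 and 26.5 to 32.9 CPM in DU145. Of 4 basal or mesenchymal genes the sum was 1010 to 2023 CPM in DU145 and at most 73.2 CPM elsewhere. In DU145, 1 of these 4 genes had at most 3 counts in the MG63 and in the RAW264.7 co-cultures.

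Level within a gene was expressed as CPM of the library total, and levels of different genes were compared only as transcripts per 1000000 (TPM), which takes transcript length into account. MSH6 was the most abundant of the 5 and MSH3 the least in each line. The median TPM of MSH6 over the 9 libraries of a line was 34.7 in C4-2, 37.2 in C4-2B, 43.4 in 22Rv1 and 62.8 in DU145. Its mean TPM in the mono-cultures of a line lay at the 86.5th to 90.7th percentile of genes above 0. The median TPM of MSH3 was 2.69 in C4-2, 2.40 in C4-2B, 2.44 in DU145 and 0.693 in 22Rv1. PMS1, PMS2 and MLH3 lay between them, at medians of 7.98 to 17.96, 11.3 to 15.0 and 6.58 to 12.1 TPM. The TPM ratio of MSH6 to MSH3, the 2 MutS homologs, had a median of 12.5 in C4-2, 14.6 in C4-2B, 30.3 in DU145 and 56.6 in 22Rv1. The libraries of 22Rv1 had ratios of 40.2 to 231, with MSH3 counts as low as 11.4 among them.

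**Figure D1:**
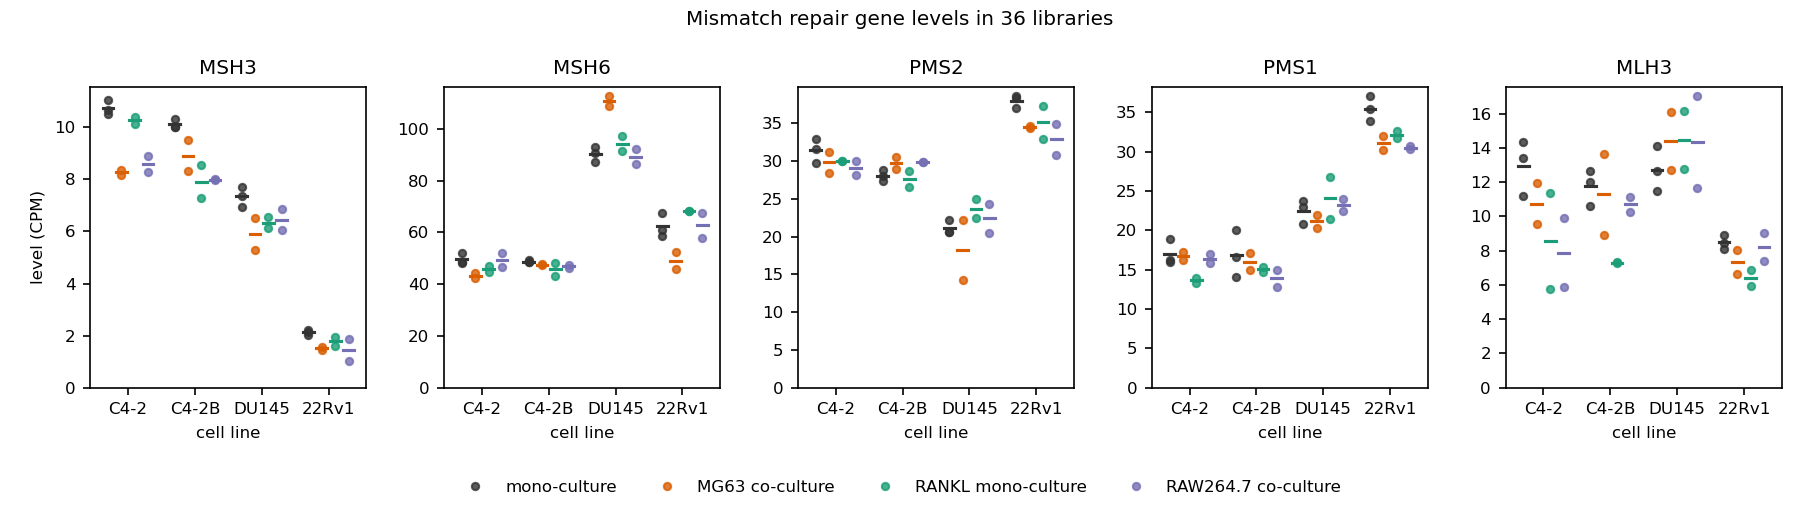
Level of the 5 mismatch repair genes in CPM (vertical axis) by cell line and culture (horizontal axis), with 1 point per library and a bar at the group mean. MSH3 in 22Rv1 stays at or under 2.21 CPM in all 9 libraries, and MSH6 in DU145 lies above every other line.

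Among the MutS homologs, MSH3 differed most between the lines. Its level in mono-culture was 10.3, 10.0 and 10.0 CPM in C4-2B, 11.1, 10.5 and 10.7 CPM in C4-2, 7.72, 7.37 and 6.95 CPM in DU145, and 2.15, 2.02 and 2.21 CPM in 22Rv1. 22Rv1 was far under the other lines, DU145 stood between, and no library of 22Rv1 in any culture reached the lowest library of another line, which was 5.29 CPM. The log2 difference of 22Rv1 was -2.38 ± 0.10 (SE) against C4-2 (edgeR quasi-likelihood test, adjusted p = 2.7e-12) and -2.34 ± 0.10 against C4-2B (adjusted p = 3.0e-12). DU145 was 1.80 ± 0.10 above 22Rv1 (adjusted p = 5.1e-11) and 0.58 below C4-2 on the log2 scale (-0.58 ± 0.09, adjusted p = 1.3e-05). In the RANKL mono-cultures, which are separate cultures of the same lines, the difference between 22Rv1 and C4-2 was -2.57 ± 0.22 (adjusted p = 9.7e-08). The count of MSH3 in 22Rv1 was 11.4 to 71.3 per library, against a detection limit of 3 counts.

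MSH6 had its highest level in DU145. In mono-culture it was 87.1, 92.9 and 90.6 CPM in DU145, 60.9, 67.4 and 58.7 CPM in 22Rv1, 48.6, 48.4 and 49.3 CPM in C4-2B, and 52.0, 48.4 and 48.5 CPM in C4-2. DU145 did not overlap with any line over its 9 libraries, which ranged from 86.4 to 113 CPM. DU145 exceeded C4-2 by 0.83 ± 0.06 on the log2 scale (adjusted p = 8.6e-10, edgeR) and 22Rv1 by 0.55 (adjusted p = 1.5e-07). 22Rv1 exceeded C4-2 by 0.28 (adjusted p = 0.00034) in mono-culture and by 0.50 (adjusted p = 4.6e-05) in RANKL mono-culture. With coding transcripts alone the mono-culture value was 0.71 (adjusted p = 1.2e-05). The mono-culture difference between DU145 and 22Rv1 ranged from 0.37 to 0.61 over 27 alternatives and was called in each.

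Among the MutL homologs, PMS1, whose part in repair is the least clear of the family, was highest in 22Rv1. Its mono-culture level was 35.4, 37.0 and 33.8 CPM in 22Rv1, 20.8, 22.9 and 23.7 CPM in DU145, 20.04, 14.1 and 16.6 CPM in C4-2B, and 16.2, 18.9 and 16.01 CPM in C4-2. The lowest of the 9 libraries of 22Rv1, at 30.3 CPM, was above the highest of DU145, at 26.7 CPM, while DU145 and the BPCa lines were nearer to each other. 22Rv1 was higher than C4-2 by 1.01 ± 0.10 on the log2 scale (adjusted p = 1.4e-07, edgeR) and higher than DU145, which lay at -0.64 relative to it (adjusted p = 1.5e-05). DU145 was higher than C4-2 by 0.37 (adjusted p = 0.0034). In RANKL mono-culture the same differences were 1.17, -0.38 and 0.79, each called. The 2 DU145 libraries there had 21.4 and 26.7 CPM, and the second value was -0.23 (adjusted p = 0.081, edgeR) without DU145 RANKL mono-culture replicate 1.

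PMS2, a MutL homolog with nuclease activity, was lowest in DU145 and highest in 22Rv1. It measured 20.6, 22.2 and 20.5 CPM in DU145, 27.4, 27.96 and 28.8 CPM in C4-2B, 33.0, 31.6 and 29.7 CPM in C4-2, and 38.4, 37.0 and 38.6 CPM in 22Rv1. DU145 was below all other lines in every library, whereas C4-2 overlapped with both C4-2B and 22Rv1 once the other cultures were included. The log2 difference of DU145 was -0.83 ± 0.10 against 22Rv1 (adjusted p = 8.9e-07, edgeR), -0.60 against C4-2 (adjusted p = 3.4e-05) and -0.49 against C4-2B (adjusted p = 0.00028). The difference of 0.23 between 22Rv1 and C4-2 had an adjusted p of 0.046 and was called in 11 of 27 alternatives.

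PMS2 has many near-identical copies, and reads shared with them can be divided between symbols. The 11 other symbols that start with PMS2 together had 124 to 176% of the CPM of PMS2 in C4-2, 127 to 190% in C4-2B, 190 to 230% in 22Rv1 and 251 to 416% in DU145. The percentage was largest in DU145, where the PMS2 level it is divided by was least. In CPM the related symbols summed to 56.2 to 74.5 in DU145 and 62.9 to 81.5 in 22Rv1. In C4-2 the sum was 37.6 to 50.4 CPM and in C4-2B 37.8 to 51.9 CPM. When PMS2 and these symbols were summed, DU145 and C4-2 differed by 0.0018 on the log2 scale (adjusted p = 0.98, edgeR), DU145 and C4-2B by -0.023 (adjusted p = 0.69), and DU145 remained below 22Rv1 by -0.46. How much of the PMS2 difference lies in the division of reads was not tested, and its values in DU145 are uncertain for this reason.

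MLH3, a MutL homolog best known from meiosis, was lowest in 22Rv1 in mono-culture. In RAW264.7 co-culture its mean was lower in C4-2 (7.89 CPM) than in 22Rv1 (8.19 CPM). Its mono-culture level was 8.43, 8.10 and 8.90 CPM in 22Rv1, 10.6, 12.6 and 11.98 CPM in C4-2B, 14.4, 13.4 and 11.2 CPM in C4-2, and 11.5, 12.6 and 14.1 CPM in DU145. The mono-cultures of 22Rv1 were below those of each other line, which overlapped with each other. The log2 difference of 22Rv1 from C4-2 was -0.66 ± 0.15 (adjusted p = 0.00090, edgeR), that of DU145 from 22Rv1 was 0.60 (adjusted p = 0.0016), and that of DU145 from C4-2 was -0.06 (adjusted p = 0.72). In RANKL mono-culture DU145 exceeded C4-2 by 0.75 (adjusted p = 0.022), and 22Rv1 was not called against C4-2 (-0.47, adjusted p = 0.19). Both values rest on 2 C4-2 libraries that were far apart, at 5.73 and 11.4 CPM. Without C4-2 RANKL mono-culture replicate 1, DU145 lay at 0.32 against C4-2 (adjusted p = 0.29) and 22Rv1 at -0.90 (adjusted p = 0.015). Without replicate 2 these were 1.302 (adjusted p = 0.0011) and 0.082 (adjusted p = 0.83), and without DU145 RANKL mono-culture replicate 2 the first was 0.58 (adjusted p = 0.13).

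**Figure D2:**
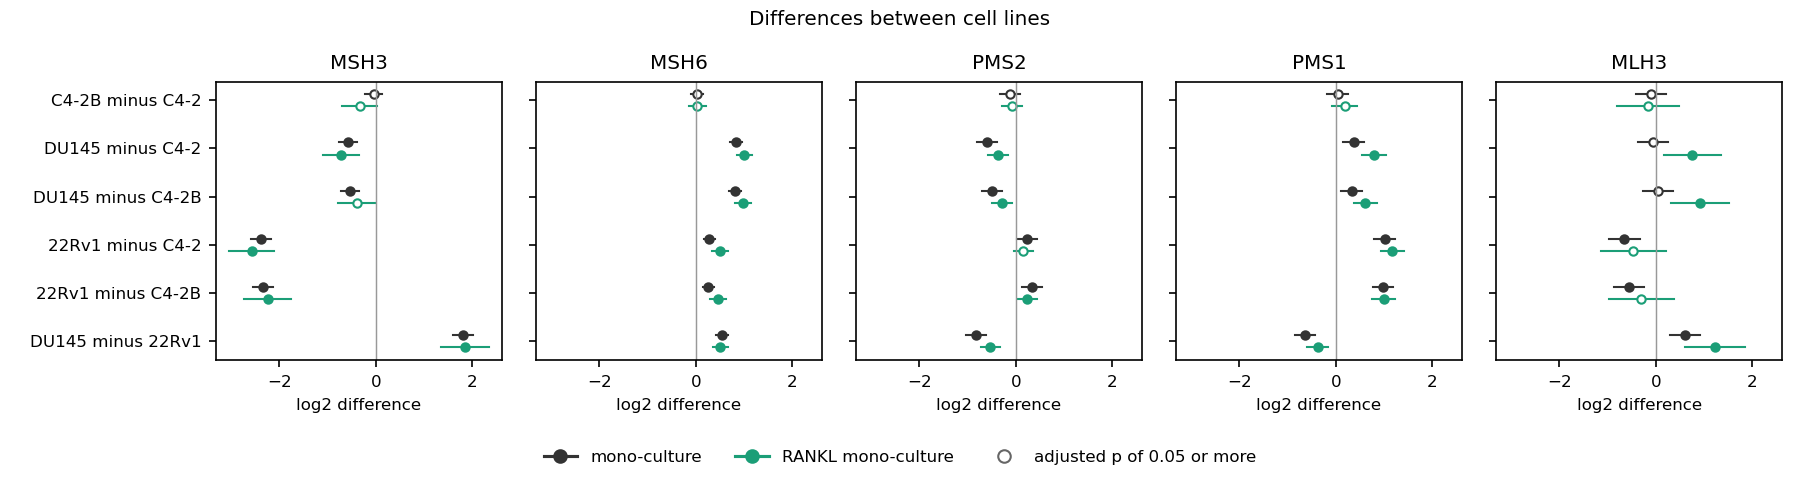
Log2 difference of each gene for the 6 pairs of lines, in mono-culture (grey) and RANKL mono-culture (green), with 95% intervals, and filled symbols where the adjusted p is under 0.05. MSH3 in 22Rv1 lies at -2.38 and -2.34 against the BPCa lines, and the intervals of C4-2B minus C4-2 include 0 for each gene.

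Over the 6 pairs of lines, 23 of 30 tests were called at an adjusted p under 0.05 in mono-culture and 21 of 30 in RANKL mono-culture. Both sets shared 19, each with the same direction. The RANKL count holds 4 calls of MSH3, which passed the filter there only through the BPCa lines. The lines differ over most genes, so these counts must be read beside all genes tested. Of all genes in mono-culture, 78.3% were called between DU145 and C4-2, 79% between DU145 and C4-2B, 72% between 22Rv1 and C4-2, 72.5% between 22Rv1 and C4-2B and 79.6% between DU145 and 22Rv1, where 4, 4, 5, 5 and 5 of the 5 mismatch repair genes were called. In RANKL mono-culture the shares were 79.1%, 78.8%, 71.5%, 71.6% and 79.1%, with 5, 4, 3, 4 and 5 called. The counts are near these shares, and the members are not set apart by being called.

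No difference between C4-2B and C4-2 was called. In mono-culture edgeR called 0 of 5 (0 at an unadjusted p under 0.05, and 0 by DESeq2), against 13.6% of all genes. In RANKL mono-culture it called 0 of 5 (0 unadjusted and 0 by DESeq2), against 6.47%. The 95% interval of the mono-culture log2 difference was -0.22 to 0.14 for MSH3, -0.10 to 0.14 for MSH6, -0.18 to 0.25 for PMS1, -0.32 to 0.09 for PMS2 and -0.40 to 0.21 for MLH3, and differences within these intervals are not excluded.

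For the mean of the BPCa lines against the mean of the LPCa lines in mono-culture, 4 of 5 were called, against 79.8% of all genes. MSH3 was higher in BPCa by 1.46 ± 0.07 on the log2 scale (adjusted p = 3.5e-12, edgeR) and MLH3 by 0.31 (adjusted p = 0.012), which was 0.13 (adjusted p = 0.40) with coding transcripts alone. MSH6, at -0.55 ± 0.04 (adjusted p = 2.1e-09), and PMS1, at -0.67 ± 0.07, were lower in BPCa, and MSH6 had -0.84 with coding transcripts alone. PMS2 had 0.13 (adjusted p = 0.097), and -0.22 (adjusted p = 2.3e-05) with its related symbols summed. In RANKL mono-culture 3 of 5 were called, against 79.2%, with 1.48 for MSH3, -0.74 for MSH6 and -0.89 for PMS1, while PMS2 (0.07) and MLH3 (-0.22) were not. MSH3 passed the minimum of 100 counts in this fit only through the BPCa lines, with at most 139 counts in C4-2 and 123 in C4-2B against 99.1 in DU145 and 19.6 in 22Rv1, so its calls between lines with RANKL are not independent of the filter. In mono-culture both LPCa lines were called on the same side of C4-2 for MSH3 (-2.38 in 22Rv1 and -0.58 in DU145), PMS1 (1.01 and 0.37) and MSH6 (0.28 and 0.83), with unequal sizes. For MLH3 only 22Rv1 was called (-0.66), and DU145 had -0.06.

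The promoters are shown because PMS1 and PMS2 each start head to head with another gene, so that both share 1 start region. By GENCODE 29 on GRCh38, the start of PMS1 on chromosome 2 lies 286 bases from that of ORMDL1, a regulator of sphingolipid synthesis, with overlapping transcripts, and that of PMS2 on chromosome 7 lies 120 bases from that of AIMP2, a scaffold of the tRNA synthetase complex. The sequences below are from RefSeq on GRCh38.p14, from 250 bases before to 50 bases after the start, 5′ to 3′ on the strand of the gene. For PMS1 the start in RefSeq lies downstream of the outermost start in GENCODE, from which the distance to ORMDL1 was taken and which the window does not reach. Capitals mark CCAAT boxes (CCAAT), GC boxes (GGGCGG) and E2F words (TTTGGCGC, TTTGCCGC, TTTCGCGC or TTTCCCGC), on either strand.
PMS1, chr2:189784200-189784499 (plus strand): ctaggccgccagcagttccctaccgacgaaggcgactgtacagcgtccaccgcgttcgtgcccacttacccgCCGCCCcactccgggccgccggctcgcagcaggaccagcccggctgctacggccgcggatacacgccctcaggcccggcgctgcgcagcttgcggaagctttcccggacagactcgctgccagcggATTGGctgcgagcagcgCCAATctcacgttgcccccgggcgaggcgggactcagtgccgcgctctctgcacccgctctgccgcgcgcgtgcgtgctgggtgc
PMS2, chr7:6009057-6009356 (minus strand): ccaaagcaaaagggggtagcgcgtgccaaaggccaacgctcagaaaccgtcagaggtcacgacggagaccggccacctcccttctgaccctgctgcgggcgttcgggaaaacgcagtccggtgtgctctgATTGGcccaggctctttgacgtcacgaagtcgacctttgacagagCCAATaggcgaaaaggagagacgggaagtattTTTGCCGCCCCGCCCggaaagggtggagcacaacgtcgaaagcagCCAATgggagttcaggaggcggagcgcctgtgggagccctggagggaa
The PMS1 window held 2 CCAAT boxes and 1 GC box. PMS2 held 3 CCAAT boxes, 2 GC boxes and 1 E2F word, which overlaps a GC box. Over 35116 promoters of the same length, 34.6% held a CCAAT box, 45.0% a GC box and 3.31% an E2F word, and these matches are descriptions of letters, not of bound sites.

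ORMDL1 had 81.3 to 110 CPM over the 9 libraries of 22Rv1, 46.5 to 85.4 CPM over those of DU145 and 48.05 to 57.3 CPM over those of C4-2. Its lowest library of 22Rv1 was above the highest of C4-2. ORMDL1 was higher in 22Rv1 than in C4-2 by 0.82 on the log2 scale and in DU145 by 0.52, where PMS1 had 1.01 and 0.37. AIMP2 had 51.4 to 114 CPM in DU145, 112 to 137 CPM in C4-2 and 106 to 123 CPM in 22Rv1, and the highest library of DU145 overlapped with both. AIMP2 lay at -1.15 in DU145 against C4-2 and at -1.04 against 22Rv1, where PMS2 had -0.60 and -0.83. For 22Rv1 against C4-2, AIMP2 had -0.12 (adjusted p = 0.50, edgeR) and PMS2 0.23. Strand use in counting is not given in the sources used here, so reads in an overlap with a gene on the opposite strand, as for PMS1 and ORMDL1, may have been counted for either gene.

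**Figure D3:**
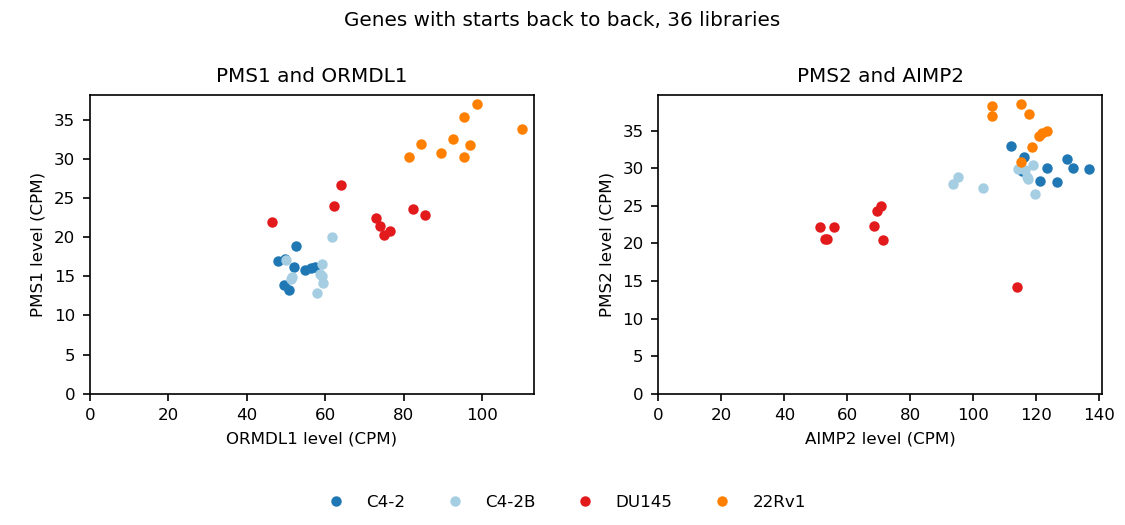
Level in CPM of PMS1 and PMS2 (vertical axes) against that of the gene starting on the opposite strand, ORMDL1 and AIMP2 (horizontal axes), 1 point per library and 36 in each plot, coloured by line. The libraries of 22Rv1 lie at the upper right for PMS1, with ORMDL1 of 81.3 to 110 CPM and PMS1 of 30.3 to 37.0 CPM.

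In the comparison with OB-like MG63 cells, MSH6 was the member called in single lines, higher in DU145 and lower in 22Rv1, and MSH3 the member called in the mean of the 4 lines. In DU145 it was 113 and 109 CPM with MG63 cells and 87.1, 92.9 and 90.6 CPM in mono-culture. In CPM both co-cultures lay above all 7 other libraries of DU145. In TPM, which depends on how reads are divided among transcripts of different length, they were 89.7 and 55.2 against 57.4 to 62.8 in mono-culture, so the second was the lowest of the 9 libraries. The log2 difference was 0.37 ± 0.06 (adjusted p = 0.00085, edgeR) and ranged from 0.24 to 0.42 over 28 alternatives, each of which called it, whereas a threshold of a fold above 2, which is not among them, would not. The mean of MSH6 in DU145 was 111 CPM with MG63 cells, 90.2 CPM in mono-culture and 94.3 CPM in RANKL mono-culture. The RANKL mono-cultures thus lay nearer to the co-cultures than the mono-cultures did. In 22Rv1, MSH6 was 52.3 and 45.9 CPM with MG63 cells and 60.9, 67.4 and 58.7 CPM in mono-culture, without overlap. The log2 difference was -0.23 ± 0.07 (adjusted p = 0.020). It was -0.17 without 22Rv1 MG63 replicate 2, which leaves 1 co-culture. It was no longer called without mono-culture replicate 2 (-0.18, adjusted p = 0.080). With RANKL mono-cultures as the control it was -0.40. These held 10097501 and 11018229 counts, still below the 15132736 and 11776862 counts of the co-cultures but nearer to them than the mono-cultures were. With coding transcripts alone the difference was -0.62.

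The level of MSH6 in C4-2 was 44.2 and 42.26 CPM with MG63 cells, and in C4-2B it was 47.8 and 47.4 CPM, with log2 differences of -0.09 and 0.03 that were not called. Each pair of lines was then compared for the size of the MG63 effect, a test added after these values were seen. MSH6 was called in 3 of 6 pairs and the other 4 genes in 0 of 24 tests (0 at an unadjusted p under 0.05 and 0 by DESeq2). The effect in DU145 exceeded that in 22Rv1 by 0.60 ± 0.09 on the log2 scale (adjusted p = 0.00069, edgeR), that in C4-2 by 0.46 ± 0.09 (adjusted p = 0.0069) and that in C4-2B by 0.34 ± 0.09 (adjusted p = 0.034). Of all genes, 10.4%, 9.63% and 8.08% were called in these pairs, 4.76% and 5.2% between 22Rv1 and C4-2 or C4-2B, and 0.179% between C4-2B and C4-2. The difference from C4-2B was called in 18 of 26 alternatives, and those from 22Rv1 and C4-2 in all 26.

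Over the 4 lines, 2 of 20 tests with MG63 cells were called, both of MSH6. The shares of all genes called were 30.5% in DU145, 20.4% in 22Rv1, 10.1% in C4-2 and 7.41% in C4-2B, against 1 of 5, 1 of 5, 0 of 5 and 0 of 5 members. The C4-2 count was 1 at an unadjusted p under 0.05 and 0 by DESeq2, and the C4-2B count was 0 by both. Of 11 proliferation genes, 4 were called higher in DU145 and 3 lower in 22Rv1, and the other 7 and 8 were not called. The sum of these 11 genes was 1535 to 1599 CPM with MG63 cells and 1504 to 1547 CPM in mono-culture in DU145, and 1204 to 1229 against 1427 to 1459 CPM in 22Rv1. Their part in the result was not tested.

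MSH3 was lower with MG63 cells in the mean of the 4 lines. It was 8.31 and 9.50 CPM in C4-2B, 8.37 and 8.18 CPM in C4-2, 6.51 and 5.29 CPM in DU145, and 1.58 and 1.45 CPM in 22Rv1. Each co-culture lay below all mono-cultures of its line. The mean log2 difference was -0.25 ± 0.06 (adjusted p = 0.0060, edgeR), and no line was called alone. With RANKL mono-cultures as the control it was -0.10 (adjusted p = 0.52). For this mean 1 of 5 members was called, against 37.5% of all genes. For the difference of the effect between BPCa and LPCa, edgeR called 0 of 5 (0 unadjusted and 0 by DESeq2), against 9.85%.

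PMS2 in DU145 was 22.2 and 14.2 CPM with MG63 cells, and the second library stood apart from the other 8 of the line, which held 20.5 to 24.98 CPM. In the same library AIMP2 was highest of the 9 at 114 CPM, and ORMDL1 was lowest at 46.5 CPM. The log2 difference of PMS2 was -0.13 (adjusted p = 0.45, edgeR) with both libraries, -0.51 (adjusted p = 0.00038) without DU145 MG63 replicate 1 and 0.15 (adjusted p = 0.26) without replicate 2. For MSH6 in DU145 the difference was 0.34 and 0.40 under the same omissions.

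MG63 is a human line, and carry-over of its RNA would be counted with that of the PCa cells. Of 7 osteoblast genes, 2 had at most 3 counts in the MG63 co-cultures of C4-2 and of 22Rv1 and 3 in those of C4-2B and of DU145. In mono-culture, at higher depth, the number was 1 in C4-2, DU145 and 22Rv1 and 2 in C4-2B. In RANKL mono-culture it was 2 in C4-2, 3 in C4-2B and DU145 and 4 in 22Rv1. POSTN had 0 counts in the MG63 co-cultures of C4-2, C4-2B and DU145 and up to 3.24 counts in those of 22Rv1. Genes not under this limit exceeded 3 counts in at least 1 co-culture of the line, so POSTN does not stand for the list. The sum of the list in DU145 was 10.4 to 12.9 CPM with MG63 cells and 8.41 to 11.9 CPM in mono-culture. In 22Rv1 it was 47.5 to 53.0 against 21.8 to 27.1 CPM, in C4-2 it was 1319 to 1413 against 516 to 584 CPM, and in C4-2B it was 1543 to 1566 against 863 to 930 CPM. In RANKL mono-culture, where no MG63 cells were present, the sum was 39.0 to 45.1 CPM in 22Rv1, 800 to 862 CPM in C4-2 and 1081 to 1110 CPM in C4-2B, above mono-culture and below the MG63 co-cultures. FN1 made up most of it, with means of 44.5 CPM in the co-cultures of 22Rv1 and 1356 CPM in those of C4-2. The part of this list in the results was not tested.

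Over the 4 lines with RANKL alone, 2 of 20 tests against mono-culture were called, both in DU145, against 32.5% of all genes there. MSH6 was 91.3 and 97.2 CPM with RANKL (0.17 on the log2 scale, adjusted p = 0.045, edgeR), and PMS2 was 22.4 and 24.98 CPM (0.27, adjusted p = 0.044). The values of MSH6 overlapped with mono-culture, and 6 of 11 proliferation genes were called higher and 0 lower, with sums of 1566 to 1623 CPM against 1504 to 1547 CPM in mono-culture, whose part in the result was not tested. The 2 calls held in 10 and 9 of 24 alternatives. With library totals as the scaling, which shifted the median of all genes by -0.103, they were 0.064 (adjusted p = 0.51) and 0.17 (adjusted p = 0.25). No member was called by edgeR in C4-2, C4-2B or 22Rv1, where 18.3%, 14.4% and 17.7% of all genes were. In these 3 lines edgeR called 0 of 15 (4 at an unadjusted p under 0.05), DESeq2 called 1, MSH6 in 22Rv1 (0.19, adjusted p = 0.039), and over all 4 lines 6 of 20 were under an unadjusted p of 0.05 and DESeq2 called 3.

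MLH3 had 7.32 and 7.28 CPM with RANKL in C4-2B, 5.73 and 11.4 CPM in C4-2, 12.8 and 16.1 CPM in DU145, and 5.94 and 6.85 CPM in 22Rv1. C4-2B and 22Rv1 lay below their mono-cultures, the C4-2 libraries were far apart, and DU145 overlapped with its mono-cultures. The mean log2 difference was -0.31 ± 0.12 (adjusted p = 0.041, edgeR), the 1 of 5 members called for the mean of the lines, against 37.3% of all genes. It held in 9 of 24 alternatives.

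Adding RAW264.7 cells to RANKL changed none of the 5 by the test. EdgeR called 0 of 20 over the lines (1 at an unadjusted p under 0.05 and 0 by DESeq2), against 0.00868% of all genes in C4-2, 0.139% in C4-2B, 0.026% in DU145 and 0.00868% in 22Rv1. For the mean of the lines it called 0 of 5 (0 unadjusted, 0 by DESeq2), against 0.121%, and for the difference between BPCa and LPCa 0 of 5 (0 unadjusted, 0 by DESeq2), against 0.0781%. The 95% interval of the mean log2 difference was -0.09 to 0.07 for MSH6, -0.11 to 0.13 for PMS1, -0.12 to 0.08 for PMS2, -0.37 to 0.09 for MSH3 and -0.09 to 0.52 for MLH3. So few genes were called anywhere in this comparison that the count says little of the members.

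**Figure D4:**
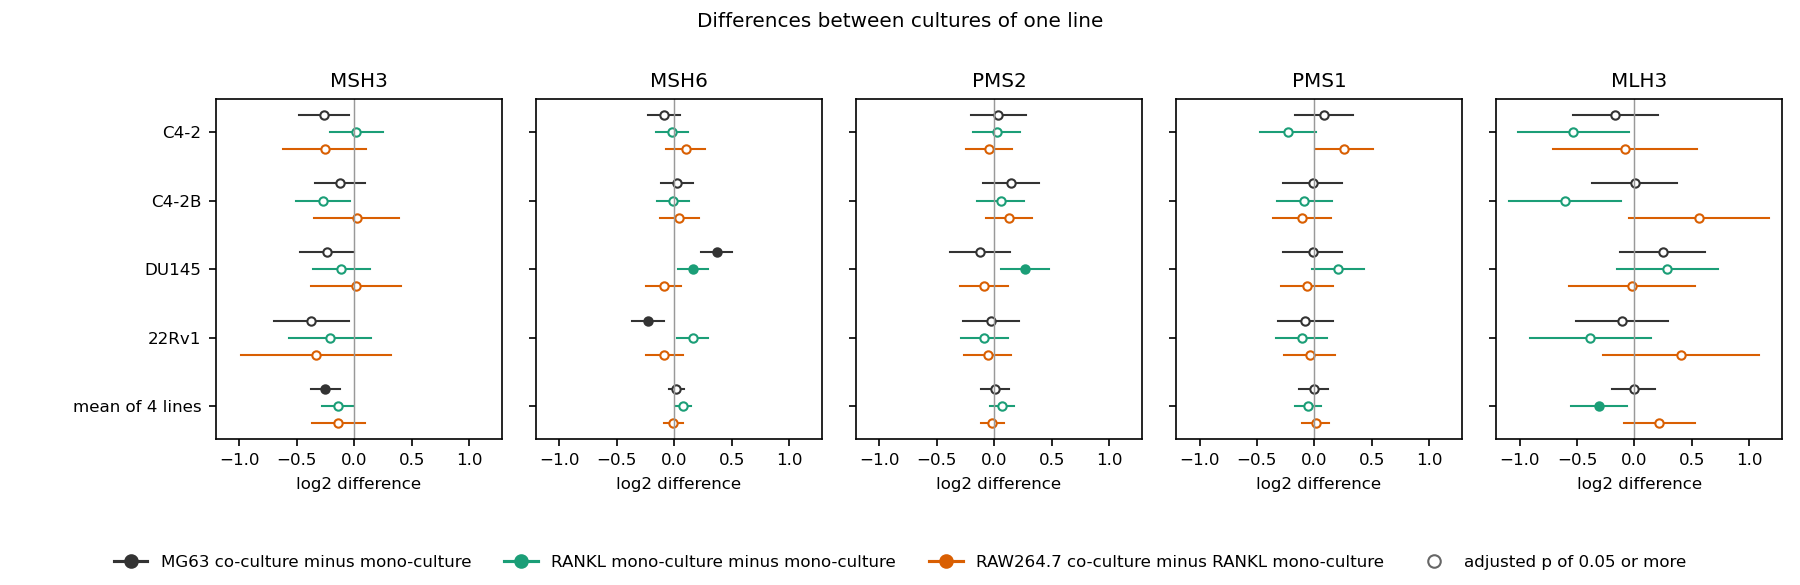
Log2 difference with MG63 cells, with RANKL and with RAW264.7 cells for each gene, per line and for the mean of the 4 lines, with 95% intervals and filled symbols where the adjusted p is under 0.05. MSH6 with MG63 cells lies at 0.37 in DU145 and at -0.23 in 22Rv1, and no symbol is filled for RAW264.7 cells.

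Transcripts of a gene can differ where its total does not, and the share of each transcript in its gene was compared between lines in mono-culture. Of 96 tests over 16 transcripts of MSH6, PMS1, PMS2 and MLH3, 9 were called, and no transcript of MSH3 could be tested. The count was 3 without 22Rv1 mono-culture replicate 3. MSH3-201, its coding transcript, held 94.1 to 96.5% of the gene in each line. The calls were MSH6-205 and the pair PMS1-201 and PMS1-206, each in DU145 against every other line. Of all transcripts tested, 5.82% were called between DU145 and C4-2, 5.69% between DU145 and C4-2B, 6.23% between DU145 and 22Rv1, 5.19% between 22Rv1 and C4-2, 5.24% between 22Rv1 and C4-2B and 0.219% between C4-2B and C4-2. Each of the first 3 comparisons held 3 of 16 of these transcripts, but PMS1-201 and PMS1-206 carried the same values and are 1 estimate counted 2 times, which leaves 6 distinct calls.

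MSH6-205, a processed transcript, made up 8.92 ± 0.69% (SD, n = 3) of MSH6 in C4-2, 10.6 ± 1.9% in C4-2B, 2.76 ± 0.93% in 22Rv1 and 0.212 ± 0.37% in DU145. DU145 was lowest, and its share relative to the rest of the gene differed by -3.76 on the log2 scale from C4-2 (adjusted p = 8.1e-05, edgeR), -3.90 from C4-2B (adjusted p = 4.7e-05) and -2.54 from 22Rv1 (adjusted p = 0.0071). On GRCh38 it spans chromosome 2 from 47695816 to 47757793, and the longest coding transcript MSH6-201 spans 47783082 to 47810101. Both share 0 exonic bases, as do MSH6-212 and MSH6-201. Without these 2 upstream transcripts MSH6 in mono-culture was higher in DU145 than in C4-2 by 0.97, higher in 22Rv1 than in C4-2 by 0.38 and lower in BPCa at -0.68, so each difference grew.

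PMS1-201 and PMS1-206 each held 0.0426 ± 0.065% of PMS1 in the mono-cultures of DU145 and 5.15 to 10.6% in the other lines, with log2 differences of -4.42, -4.31 and -4.91 from C4-2, C4-2B and 22Rv1. Over all 9 libraries of DU145 the share reached 19.2%, so the mono-cultures did not stand for the line. Shares that were not called also varied. PMS1-213, a coding transcript, held 53.0 ± 6.1% in DU145 and 31.7 to 36.8% elsewhere, and MSH6-210, also coding, held 40.0 ± 0.95% in 22Rv1 and 23.4 to 27.0% elsewhere. PMS2-201, the main coding form, held 62.9 ± 1.9% in DU145 and 71.9 to 74.4% elsewhere. The split of reads among transcripts is an estimate, and its error is not in the test.

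**Figure D5:**
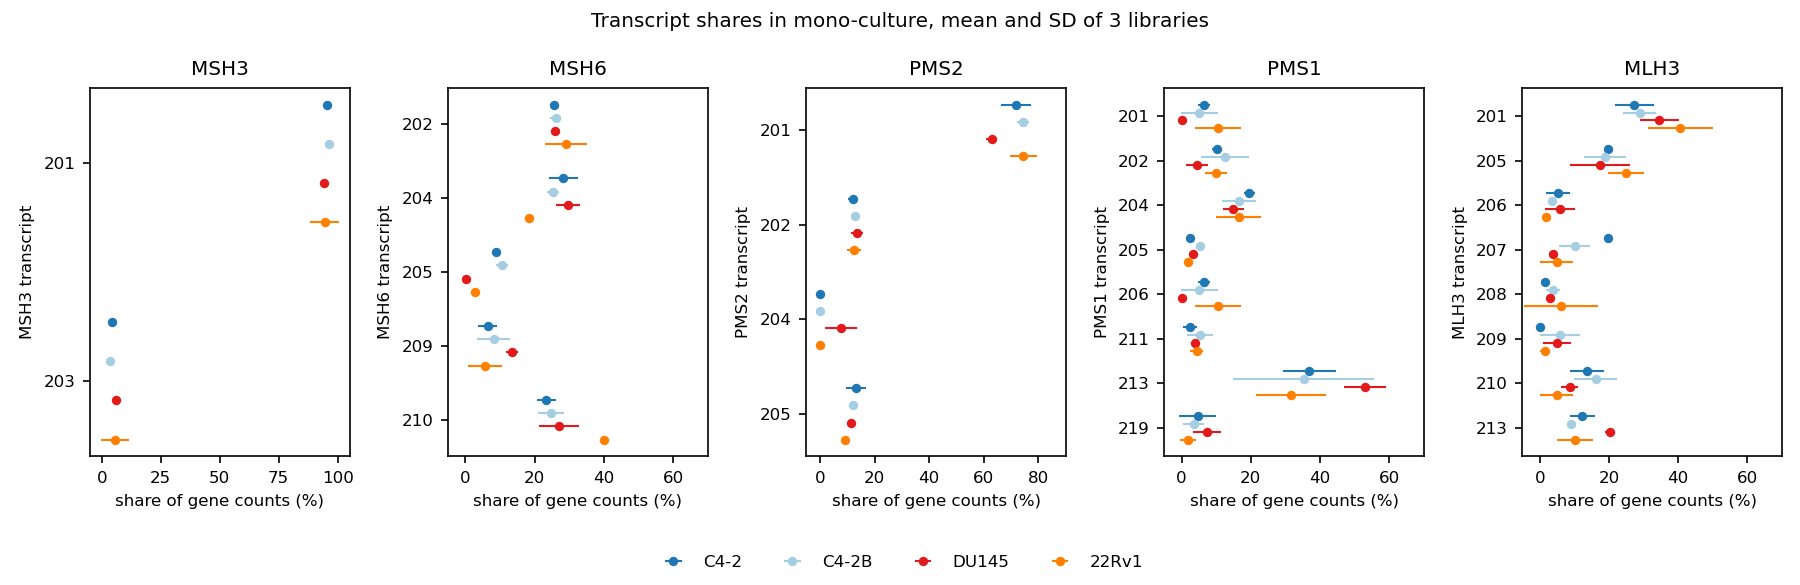
Share of each transcript in its gene in percent (mean ± SD of 3 mono-cultures) by line, for transcripts that reach 5% in a line. MSH6-205 has 8.92% and 10.6% in C4-2 and C4-2B and 0.212% in DU145.

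Genes that a textbook account of the pathway lists after mismatch recognition were followed as a list of 17. Whether each of them acts in this repair was not tested. The list held EXO1 (the exonuclease), PCNA (the sliding clamp), RFC1 to RFC5 (its loader) and the RPA genes and SSBP1 (binding single-stranded DNA). It also held POLD1 to POLD4 (DNA polymerase delta) and LIG1 (the ligase). RPA4 was too low to be tested, with no group mean above 0.707 CPM. Of the 16 tested, 27 of 96 tests between lines in mono-culture were called higher and 31 lower. None of 16 was called between C4-2B and C4-2 (1 at an unadjusted p under 0.05, and 0 by DESeq2), and 11 to 13 were called in each other pair. These counts stand beside 13.6% of all genes called between C4-2B and C4-2 and 72 to 79.6% in the other pairs. The median log2 difference was 0.13 between 22Rv1 and C4-2 and -0.44 between DU145 and 22Rv1, where the medians of all genes were 0.01 and -0.02.

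LIG1 was higher in 22Rv1, the line with the least MSH3. Its mean was 71.8 ± 4.8 CPM in 22Rv1 (SD, n = 3) and 19.2 ± 1.2 CPM in C4-2, a log2 difference of 1.85. POLD4 was lower in 22Rv1 than in C4-2 at -1.30 and higher in DU145 than in 22Rv1 by 2.02. RFC3 lay at -1.64 and POLD2 at -1.25 in DU145 against C4-2, and PCNA at -1.10 in DU145 against 22Rv1. EXO1 was higher in 22Rv1 than in C4-2 by 0.80, and RFC4 was called in no pair.

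With MG63 cells 9 of 64 tests of this list were called, 4 higher and 1 lower in DU145, and 1 higher and 3 lower in 22Rv1. Of all genes, 30.5% were called in DU145 and 20.4% in 22Rv1, and the count of 9 was 23 without DU145 MG63 replicate 1. That fit leaves only replicate 2, the library that stood apart. The list summed to 1306 and 1519 CPM in the 2 MG63 co-cultures of DU145 and to 1340 to 1347 CPM in mono-culture. The calls in DU145 therefore rest on 2 libraries that differed. POLD4 was higher in both LPCa lines, by 0.85 in 22Rv1 and 0.70 in DU145, though in DU145 its mean was 159 ± 86 CPM (SD, n = 2). EXO1 (-0.34), PCNA (-0.23) and RFC3 (-0.34) were lower in 22Rv1. POLD1 (0.46), LIG1 (0.38) and RFC4 (0.32) were higher in DU145, and RPA1 (-0.30) was lower. With RANKL 6 of 64 were called, against 14.4 to 32.5% of all genes in a line, and with RAW264.7 cells 0 of 64 by edgeR (1 unadjusted and 0 by DESeq2), against 0.00868 to 0.139%.

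The meiotic MutS homologs, which do not act in this repair, were listed as well. MSH4 was not tested, with no group mean above 0.531 CPM, and MSH5 was called in 5 of 6 pairs of lines, at -0.80 in DU145 against 22Rv1, and 72 to 79.6% of all genes were called in these 5 pairs.

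Across the 16 group means, the genes most like each member in log2(CPM + 1), out of 13454 genes, were named by Pearson correlation. For MSH3 they were HNRNPA3 (r = 0.993), SFT2D1 (0.993) and TMEM185B (0.991). For MSH6 they were NMRK1 (0.983), EIF3C (0.980) and CPSF3 (0.979), and for PMS1 RASA4B (0.987), TEAD2 (0.982) and MEGF6 (0.981). For PMS2 they were ZNF107 (0.980), ANKRD18EP (0.979) and HERC1 (0.978), and for MLH3 KNDC1 (0.933), ZNF699 (0.931) and PLD2 (0.905). Among the members, MSH3 and PMS1 had r = -0.903, MLH3 and PMS2 -0.723, and MSH6 and PMS2 -0.690. The 16 points share 4 lines and the depth of their cultures, and such values are descriptions of which lines are high or low.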

How the data were processed

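RNA from 36 cultures of established PCa cell lines was measured by poly-A selected, strand-specific sequencing. The deposited value is an estimated count of each transcript in each sample, which the authors obtained with kallisto. The submitters' processing notes name FastQC, kallisto and hg19, and the table holds no coordinates. Lines of a transcript listed more than once were used once, transcript counts were summed per gene symbol and rounded, and all 36 columns of values were used. Positions were matched by transcript ID to GENCODE 29 (GRCh38), where 95.4% of the transcripts were found. Promoters came from RefSeq tables on GRCh38.p14, in which PMS1 and PMS2 both matched.

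Genes with 100 or more counts in 1 or more fitted samples were tested with edgeR 4.0.16 (TMM, quasi-likelihood, R 4.3.3), with limma 3.58.1 loaded by it, and a mean for each line and culture. The 20 samples without RANKL (13437 genes), the 16 with RANKL (11525 genes) and all 36 (13454 genes, for RANKL) were fitted separately. A gene was called at a Benjamini-Hochberg adjusted p under 0.05 over all genes tested. Intervals are 95% intervals from the SE, whereas the p of a low count is also held to Poisson error, so for MSH3 an interval can leave out 0 without a call. Transcript shares were tested with diffSpliceDGE on 39699 transcripts. DESeq2 1.42.0 was an alternative. Python 3.11.15, pandas 2.3.3, numpy 2.4.6 and matplotlib 3.10.9 were used. CPM and TPM were computed from the library totals, and 3 counts, the detection limit, corresponded to at most 0.313 CPM. Counting intervals cover counting error only.

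The members, the lists of other genes and the tests were chosen with earlier results of these data known. Genes are named if they are members, on the list of other mismatch repair genes, meiotic MutS homologs, PMS2-related symbols, neighbours starting on the opposite strand within 1000 bases (of PMS1 and PMS2; others are not reported here), proliferation or cell type markers, or the 3 most similar genes of each member. Alternatives changed the scaling, filter, tool, samples fitted, control, threshold, transcripts summed and replicate block, and each sample was left out in turn. For RANKL against mono-culture only the 20 mono-cultures with or without RANKL were left out in turn, and for transcript shares only the 12 mono-cultures. The fit was tested on simulated data for MG63 co-culture in C4-2 (13290 genes): of 50 genes each, edgeR recovered 33 at a fold of 1.5, 47 at 2, 49 at 3 and 50 at 4, and called 13 of 13090 unchanged genes. For transcript shares of DU145 against C4-2 (34887 transcripts), 1, 4, 21 and 34 of 50 were recovered at folds of 2, 4, 8 and 16, so most smaller changes in share would be missed, and 141 transcripts of unchanged genes were called as well.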

Additional observations from a re-analysis of the deposited data

Results flagged for a closer look

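The change of MSH6 with MG63 cells differed between cell lines by a test of the difference itself (edgeR quasi-likelihood test, Benjamini-Hochberg adjusted over 13437 genes), added after the values were seen. The effect in DU145 minus that in 22Rv1 was 0.60 (adjusted p = 0.00069), with 113 and 109 CPM against 87.1 to 92.9 CPM in DU145 and 52.3 and 45.9 CPM against 58.7 to 67.4 CPM in 22Rv1. The effect in DU145 minus that in C4-2 was 0.46 (adjusted p = 0.0069), and minus that in C4-2B it was 0.34 (adjusted p = 0.034). The last was called in 18 of 26 alternatives. It was not called with RANKL mono-cultures as the control (0.22, adjusted p = 0.12), with no filter on low counts (0.30, adjusted p = 0.12), or without either C4-2B MG63 replicate, C4-2B mono-culture replicate 2 or 3, or DU145 mono-culture replicate 1 or 3 (0.33 to 0.36, adjusted p of 0.056 to 0.12).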

How the results depend on the processing

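Under a fold above 2 with an unadjusted p, the members' calls between lines fell to 4 in mono-culture and 6 in RANKL mono-culture, those of BPCa against LPCa to 1 in each, and those with MG63 cells or RANKL, in single lines or the mean, to 0. Of all genes it called 3.04% between C4-2B and C4-2 and 28.7 to 40.2% in the other pairs in mono-culture. With RANKL these shares were 1.39% and 26.3 to 36.9%, and for BPCa against LPCa they were 30% and 26.8%. In single lines the shares were 2.4 to 4.48% with MG63 cells and 2.98 to 5.83% with RANKL. That threshold left 13 calls of the other mismatch repair genes between lines and 0 with MG63 cells, 0 with RANKL and 0 of the 15 over all cultures. RANKL mono-cultures as the control left 0 for the MG63 mean, no filter left 0 with RANKL in single lines, and DESeq2 and library total each gave 2 for the RANKL mean. Fitting all 36 samples gave 14 for the other genes with MG63 cells, and a minimum of 10 counts gave 15 transcript calls. Library total moved the median of all genes by over 0.1 in MG63 against mono-culture of C4-2 (-0.109) and 22Rv1 (-0.107), RANKL in DU145 (-0.103) and 22Rv1 against C4-2B with RANKL (0.111). PMS2 changed direction with its family summed (-0.22 for BPCa against LPCa, 0.0018 for DU145 against C4-2) and, in the MG63 mean, without DU145 MG63 replicate 1 (-0.091, against 0.075 without replicate 2). MLH3 in BPCa against LPCa was 0.13 (adjusted p = 0.40, edgeR) with coding transcripts alone. The cause of these changes was not tested. Equal replicate numbers did not deviate together (mean correlations of -0.0328 to 0.0188), so the numbers do not pair the samples. With the replicate block the calls with RANKL became 0 in single lines and 0 in the mean, and they were 22 and 21 between lines, 2 with MG63 cells, 3 for the difference between lines, 59 for the other genes between lines and 9 for transcripts. Leaving out 1 library gave 22 to 23 calls between lines in mono-culture, 19 to 22 in RANKL mono-culture, 4 to 5 and 3 to 4 for BPCa against LPCa, 1 to 4 with MG63 cells, 1 to 2 for their mean, 0 to 1 for the BPCa and LPCa difference, 2 to 7 for the difference between lines, 0 to 3 with RANKL, 0 to 2 for its mean, and 0 with RAW264.7 cells. It gave 54 to 67 calls of the other genes between lines, 6 to 23 with MG63 cells, 5 to 8 with RANKL, and 3 to 11 transcript calls. The highest counts with MG63 cells, 7 and 23, came without DU145 MG63 replicate 1, and the lowest transcript count, 3, without 22Rv1 mono-culture replicate 3.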
